A study of Mus musculus with 2 samples.

Results

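Nuclear-encoded genes of the mitochondrial respiratory chain were examined in RNA from the nucleoplasm of mouse macrophages. The members are the genes whose symbol starts with Nduf, Uqcr, Cox4 to Cox8 or Atp5 and that have at least 1 transcript annotated as protein-coding. The pattern matched 103 genes, and 90 of them, out of 55536 mouse genes in the tables, were kept. The other 13 have only noncoding annotation, mostly processed pseudogenes. The 90 members carry 89 distinct symbols, because Atp5o has a second identifier for a long read-through model. By role they comprise 7 core and 29 accessory subunits of complex I, 8 complex I assembly factors, 8 genes of complex III, 20 of complex IV and 18 of complex V, 5 of these in the F1 head.

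The cells were primary macrophages grown from the bone marrow of C57BL/6J mice, after 20 min with 100 ng/ml lipid A, the part of lipopolysaccharide that activates TLR4. All libraries belong to this 1 group, and no allele or other treatment is named in the labels. Ribosomal RNA was depleted before 2 libraries were sequenced, with an RNA input of 1 µg for replicate 1 and 500 ng for replicate 2. Replicate number and RNA input therefore cannot be told apart, and the same donor identifier is given for both libraries with no statement on separate cultures or animals. Values are given for both libraries, with the mean and SD where useful (n = 2 libraries), and no p-value was computed. With no untreated sample, no effect of lipid A was measured.

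The estimated counts over mouse genes summed to 18194818 in replicate 1 and 18667509 in replicate 2, and a gene with no count could still have up to 3 counts, that is 0.165 and 0.161 CPM (counts scaled to library size). Of the macrophage markers, 8 of 8 reached 1 TPM (a level scaled by transcript length and by the library's total) in both libraries, with a median of 138 ± 33.2 TPM. None of the neutrophil, B cell, T and NK cell, erythroid or stromal markers did, and 1 of 4 dendritic cell markers, Zbtb46, did. In bulk RNA, fewer cells of a type and less RNA per cell cannot be told apart. All intervals below are 95% intervals that cover counting error only.

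The respiratory chain passes electrons from NADH and succinate through complexes I, II, III and IV to oxygen and pumps protons, and complex V, the ATP synthase, uses the proton gradient to make ATP. Most subunits are encoded in the nucleus, translated in the cytosol and imported, while a small core is encoded by mitochondrial DNA. In macrophages, activation through TLR4 is known to shift metabolism from respiration towards glycolysis over hours, and complex I and II also act as sources of reactive oxygen species. Nucleoplasmic RNA holds transcripts that are being made, processed or awaiting export. The values describe this fraction, and cytosolic messenger RNA carried over into it was not measured. The 13 subunit genes of mitochondrial DNA, not transcribed in the nucleus, held 3.09% of counts in replicate 1 and 10.4% in replicate 2.

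The stretch just upstream of the start site is shown for subunit genes of complex IV that come as a broadly expressed and a tissue-restricted form, and for Atp5g2 as an example with a match from complex V. RefSeq windows on GRCm38.p6, from 250 bases before to 50 after the start, were matched for 73 members (78 windows). Each run holds the 250 upstream bases, 5′ to 3′ in the direction of transcription. Capitals mark matches, on either strand, to GCGCATGC (the core of the NRF1 motif) or CCGGAAG (an ETS motif bound by GABPA). In Cox6a1 the run is chr5:115348959-115349208 on the minus strand, Cox6b1 chr7:30626115-30626364 on the minus strand, Cox6b2 chr7:4753095-4753344 on the minus strand, Cox8a chr19:7217617-7217866 on the minus strand, Cox8b chr7:140900447-140900696 on the minus strand, Cox7a2 chr9:79759854-79760103 on the minus strand, Cox7a1 chr7:30183921-30184170 on the plus strand and Atp5g2 chr15:102671048-102671297 on the minus strand.
Cox6a1: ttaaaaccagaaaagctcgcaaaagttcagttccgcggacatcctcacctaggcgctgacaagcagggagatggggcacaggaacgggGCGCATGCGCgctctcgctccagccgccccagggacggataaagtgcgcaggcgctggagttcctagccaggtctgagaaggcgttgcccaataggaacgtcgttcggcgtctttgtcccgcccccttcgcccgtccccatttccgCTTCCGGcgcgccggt
Cox6b1: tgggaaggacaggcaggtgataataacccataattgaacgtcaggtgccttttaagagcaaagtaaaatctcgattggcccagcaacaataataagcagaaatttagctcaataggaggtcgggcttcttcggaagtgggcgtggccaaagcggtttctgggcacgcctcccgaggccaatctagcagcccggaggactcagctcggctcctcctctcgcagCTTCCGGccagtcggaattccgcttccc
Cox6b2: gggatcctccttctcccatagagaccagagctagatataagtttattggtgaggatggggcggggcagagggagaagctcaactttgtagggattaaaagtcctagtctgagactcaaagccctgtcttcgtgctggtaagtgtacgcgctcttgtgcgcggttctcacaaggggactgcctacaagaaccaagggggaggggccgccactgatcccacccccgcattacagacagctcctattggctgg
Cox8a: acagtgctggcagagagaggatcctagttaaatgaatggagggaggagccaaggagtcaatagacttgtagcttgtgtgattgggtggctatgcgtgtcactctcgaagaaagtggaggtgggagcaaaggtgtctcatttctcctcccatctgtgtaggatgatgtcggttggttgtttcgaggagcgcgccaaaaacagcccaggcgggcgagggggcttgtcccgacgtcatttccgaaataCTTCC
Cox8b: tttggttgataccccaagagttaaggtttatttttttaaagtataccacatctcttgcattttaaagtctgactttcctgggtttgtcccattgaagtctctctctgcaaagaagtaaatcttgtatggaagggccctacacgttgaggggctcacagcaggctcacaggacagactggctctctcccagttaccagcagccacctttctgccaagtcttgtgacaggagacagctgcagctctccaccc
Cox7a2: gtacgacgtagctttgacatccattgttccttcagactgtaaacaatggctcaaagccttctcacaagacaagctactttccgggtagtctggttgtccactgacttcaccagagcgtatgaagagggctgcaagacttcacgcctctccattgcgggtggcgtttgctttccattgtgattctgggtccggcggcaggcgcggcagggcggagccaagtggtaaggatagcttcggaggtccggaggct
Cox7a1: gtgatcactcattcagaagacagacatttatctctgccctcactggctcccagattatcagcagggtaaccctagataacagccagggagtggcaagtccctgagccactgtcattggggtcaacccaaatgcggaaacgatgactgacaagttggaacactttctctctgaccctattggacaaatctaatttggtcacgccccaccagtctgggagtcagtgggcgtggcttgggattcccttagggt
Atp5g2: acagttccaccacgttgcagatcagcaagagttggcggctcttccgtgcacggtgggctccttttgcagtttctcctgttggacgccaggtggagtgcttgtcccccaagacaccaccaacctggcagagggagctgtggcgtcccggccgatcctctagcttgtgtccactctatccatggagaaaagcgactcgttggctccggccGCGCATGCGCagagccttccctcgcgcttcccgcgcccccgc

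Cox6a1 holds both motifs, Atp5g2 holds the NRF1 core, and Cox6b1 and Cox8a hold the ETS motif. In Cox6a1 and Atp5g2 the NRF1 core matches on both strands, and these matches overlap. The match at the 3′ end of the Cox8a run crosses the start site, so only its upstream letters are shown. No match lies in the 4 runs of Cox6b2, Cox8b, Cox7a2 and Cox7a1, of which Cox7a2 is a broadly expressed gene. No match of one motif overlapped a match of the other in these runs. Cox7b, Cox7b2 and Ndufa4, which belong to the same pairs, and Atp5g1 and Atp5g3 have windows with no match and are not printed. Over all such pairs, 3 of the 6 broadly expressed forms with a window held a match, and 0 of the 4 restricted forms.

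Over all windows, the NRF1 core was found in 11 of 78 (14.1%), against 2.71% of 32851 windows of the same length in the table. The ETS motif was found in 16 (20.5%), against 8.86% of all. AAGATGGC, a motif of YY1, was found in 11 (14.1%), against 2.75% of all, and in 9 of the 11 it lay wholly after the start, in 1 (Atp5f1) across it and in 1 (Atp5j) upstream. Both the NRF1 core and the ETS motif were present for Atp5k, Atp5l, Cox6a1 and Uqcr11, and 32 members held at least 1 of the 3 motifs. These matches are letters in a window, and binding was not measured. Members with no window in the table include Atp5a1, Atp5mpl, Cox4i1, Cox4i2, Cox6a2, Cox6c, Cox8c, Ndufa2, Ndufa4l2, Ndufaf6, Ndufb9, Ndufs1, Uqcrb, Uqcrc2 and Uqcrq.

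Most of the genes were present in the nucleoplasmic fraction at modest levels. Of the 90 members, 77 reached 1 TPM in both libraries, against 44.9% of the 22015 nuclear-encoded protein-coding genes. The median member stood at 7.33 TPM in replicate 1 and 5.54 in replicate 2 (6.43 ± 1.27), between the median of 0.535 ± 0.0778 TPM over all nuclear-encoded protein-coding genes and that of 9.87 ± 1.90 over the 9889 of them at 1 TPM or more in both libraries. Together the members made up 0.0689% of the counts of replicate 1 and 0.0692% of those of replicate 2. The 5 highest, Atp5b, Cox4i1, Cox7c, Atp5a1 and Ndufs1, held 22.8% and 21.6% of the members' summed TPM. The order of members was similar in both libraries (Spearman's rho 0.86 over the 77 detected genes, which share libraries and lengths).

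Below 1 TPM in both libraries were 9 members, namely Cox4i2, Cox6a2, Cox7a1, Cox7b2, Cox8b, Cox8c, Ndufa4l2, the assembly factor Ndufaf2 (0.45 and 0.81 TPM) and the second Atp5o identifier. The latter, a read-through model that also takes in exons of Donson, was at 0 counts in both libraries, as were Cox7b2, Cox8b, Cox8c and Ndufa4l2. A further 4 crossed 1 TPM in 1 library only: Cox6b2, Ndufb4, Ndufb6 and Ndufc1. Ndufb6 was at 1.51 and 0.50 TPM from 13 and 5.4 counts, and Ndufc1 at 4.32 and 0.90 TPM from 21 and 15 counts. Depth set the precision: 36 members had under 50 counts in at least 1 library, and 35 had over 100 in both.

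**Figure D1:**
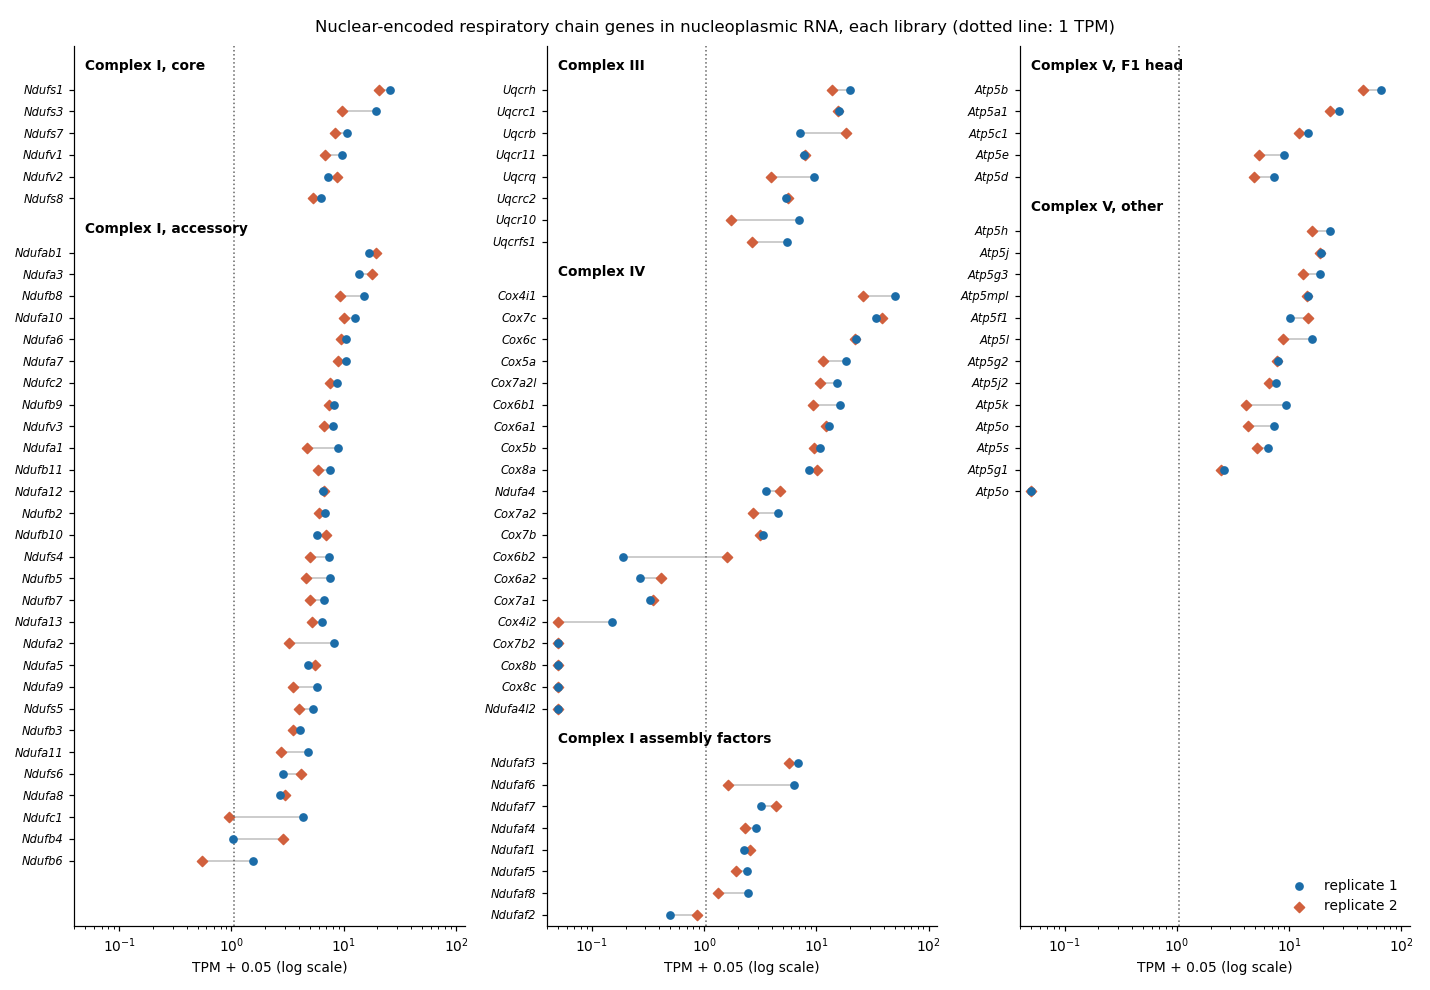
Level of 89 of the 90 members in replicate 1 (circles) and replicate 2 (diamonds), as TPM with 0.05 added so that 0 can be drawn on the log axis, grouped by complex and role; grey lines join the libraries and the dotted line marks 1 TPM. All core subunits of complex I that are drawn and all genes of complex III lie above 1 TPM in both libraries, and the genes at the left edge are at 0.

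Complex I takes electrons from NADH. Its 7 nuclear-encoded core subunits, which include those that carry the cofactors, were above 1 TPM in both libraries, with a median of 9.72 ± 1.41 TPM. Ndufs1, the largest iron-sulfur subunit, stood at 25.96 and 20.64 TPM. Ndufs3, a subunit of the peripheral arm, stood at 19.25 and 9.67 TPM. Both were among the highest of the core, and replicate 1 was the higher for each. In the second deposited quantification of the same reads, replicate 2 was the higher for each. Ndufs1 was at 18.9 and 26.7 TPM there and Ndufs3 at 12.8 and 16.1. Ndufs7, which holds the last iron-sulfur cluster before ubiquinone, was at 10.72 and 8.34 TPM. Ndufv1, the subunit that binds NADH and FMN, was at 9.68 and 6.75 TPM, and its partner Ndufv2 at 7.27 and 8.72. Ndufs8 was the lowest at 6.23 and 5.28 TPM, and it was the lowest in each library.

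The 29 accessory subunits, which surround the core and are needed for its assembly and stability, were lower (median 5.99 ± 1.11 TPM), and 26 of 29 reached 1 TPM in both libraries. Ndufab1, the mitochondrial acyl carrier protein, led with 16.89 and 19.26 TPM. Ndufa3, a membrane-arm subunit, was at 13.52 and 17.87 TPM, and Ndufb8 at 15.09 and 9.20. Ndufab1 and Ndufa3 were higher in replicate 2, and Ndufb8 was lower, though not in the second quantification (5.91 and 7.81 TPM). The lowest were Ndufb4, at 0.98 and 2.84 TPM, and Ndufb6. The remaining members of this group that were detected in both libraries had mean levels between those of Ndufb8 and Ndufa8, which was at 2.66 and 2.93 TPM. Ndufs4, whose loss is known to impair complex I and cause Leigh-like disease in mice, was at 7.29 and 4.93 TPM. Ndufa13, also known as GRIM-19, was at 6.33 and 5.20 TPM, and Ndufa1, an X-linked membrane-arm subunit, at 8.92 and 4.65. All 3 were lower in replicate 2 in TPM, as were most members. In the second quantification all 3 were higher in replicate 2, at 5.34 and 6.23, 2.49 and 4.08, and 3.01 and 4.27 TPM.

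The 8 complex I assembly factors matched by the pattern, which help to build the complex and are not part of it, had a median of 2.36 ± 0.417 TPM, and 7 of 8 reached 1 TPM in both libraries. Ndufaf3 was the highest at 6.84 and 5.68 TPM. Ndufaf7, a methyltransferase, was at 3.16 and 4.29 TPM, and Ndufaf6 at 6.27 and 1.57. Ndufaf6 differed more between the libraries in TPM than in counts, which were 54 and 26. Ndufaf8 was at 2.42 and 1.27 TPM, the lowest mean after Ndufaf2.

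Complex III passes electrons from ubiquinol to cytochrome c. All 8 of its nuclear genes in the list were above 1 TPM in both libraries, with a median of 7.04 ± 0.509 TPM. Cytochrome c1 (Cyc1) lies outside the symbol pattern and is given further below. Uqcrh, the hinge protein near cytochrome c1, was at 19.97 and 13.82 TPM. The core protein Uqcrc1 was at 15.97 and 15.57 TPM, while the other core protein, Uqcrc2, was at 5.31 and 5.55. Each of these core proteins had nearly the same level in both libraries. In the second quantification both were higher in replicate 2, at 7.94 and 13.0 TPM for Uqcrc1 and 3.60 and 7.59 for Uqcrc2. Uqcrfs1, the Rieske iron-sulfur protein, had the lowest mean of the complex, with 5.42 and 2.63 TPM. Uqcrb, which takes part in ubiquinone binding, was at 7.16 and 18.46 TPM, and the small subunit Uqcr10 at 6.90 and 1.68. Uqcrb and Uqcr10 thus moved in opposite directions between the libraries, and their counts are given below.

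Complex IV, cytochrome c oxidase, reduces oxygen. Its 20 nuclear genes ranged from 0 to a mean of 38.1 TPM, with 12 detected in both libraries and a median of 3.97 ± 0.0919 TPM over all 20 and of 12.2 ± 2.66 TPM over the 12. Cox4i1, the broadly expressed form of subunit 4, was at 50.38 and 25.78 TPM. Cox7c was at 33.73 and 38.51 TPM and Cox6c at 22.47 and 21.89. Replicate 1 was higher for Cox4i1 and replicate 2 for Cox7c, so that their order was reversed between the libraries. In the second quantification it was not reversed, with Cox4i1 at 31.4 and 43.1 TPM and Cox7c at 22.6 and 34.3. Cox5a was at 18.27 and 11.33 TPM and Cox5b at 10.83 and 9.51. Both of these subunits have 1 gene each in the list and no alternative form.

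In each pair of a broadly expressed and a tissue-restricted complex IV gene, the broadly expressed gene was the higher in both libraries. The restricted forms are known from heart and skeletal muscle (Cox6a2, Cox7a1, Cox8b), from testis (Cox6b2, Cox7b2, Cox8c), and from lung or hypoxic cells (Cox4i2, Ndufa4l2). Together these 8 genes had 5 counts in replicate 1 and 18 in replicate 2. In the second quantification they had 71 and 79, and 1 of them, Cox7a1, was above 1 TPM in both libraries. Ratios between forms below use counts per length, summed over both libraries.

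Cox4i2 had 1 count in all, at 0.10 and 0 TPM, so that Cox4i1 was 811-fold higher with an interval of 145 to 32056. Cox6a1 was at 12.95 and 12.11 TPM against 0.22 and 0.36 for Cox6a2, a 42.0-fold ratio (18.9 to 116). Cox7a2 was at 4.54 and 2.70 TPM against 0.28 and 0.30 for Cox7a1, a 12.1-fold ratio that rests on 3 counts of Cox7a1 (3.94 to 60.3). The second deposited quantification of the same reads gave the restricted genes more counts and moved these ratios. Cox4i2 had 20 and 16 counts there, which put Cox4i1 50.1-fold and 66.4-fold above it. Cox7a1 had 36 and 23 counts (2.18 and 1.95 TPM), and Cox7a2 was only 1.85-fold and 3.25-fold above it. For Cox6a1 over Cox6a2 the ratio was 84.3 and 18.6. The direction was thus the same in both quantifications, but the size was not. In both, the smallest of these ratios was that of Cox7a2 over Cox7a1. Cox7a2l, a relative of Cox7a2 that helps complexes III and IV to associate, was at 15.26 and 10.67 TPM, 3.52-fold above Cox7a2 (2.69 to 4.69), but 1.34-fold and 1.22-fold above it in the second quantification.

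Cox7b was at 3.32 and 3.10 TPM and Cox7b2 at 0 counts, which makes Cox7b at least 7.04-fold higher in replicate 1 and at least 8.27-fold in replicate 2, with the limit of 3 counts set per library. Cox8a, at 8.60 and 10.02 TPM, was at least 8.44-fold and 12.8-fold above Cox8b and at least 13.7-fold and 20.2-fold above Cox8c. Ndufa4, first assigned to complex I and now known as a complex IV subunit, was at 3.53 and 4.71 TPM, at least 12.6-fold and 20.8-fold above Ndufa4l2. The size of each bound depends on the level of the broadly expressed gene and on the length of the restricted one. In the second quantification Cox7b2 had 3 counts in each library and Cox8b 3 and 5, which put Cox7b 29.8-fold and 46.5-fold above Cox7b2 and Cox8a 28.0-fold and 20.8-fold above Cox8b, while Cox8c was again at 0.

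Cox6b2 was the exception among the restricted forms in its spread, with 1 count in replicate 1 and 12 in replicate 2 (0.14 and 1.56 TPM), against 16.36 and 9.25 TPM for Cox6b1. The summed ratio of Cox6b1 over Cox6b2 was 14.2 (8.10 to 27.2), and in the second quantification it was 25.4 and 8.01. Of the 12 counts in replicate 2, 10 were assigned to a transcript annotated as intron-retaining and 2 to protein-coding ones, so the higher value in that library did not come mainly from the coding transcript.

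**Figure D2:**
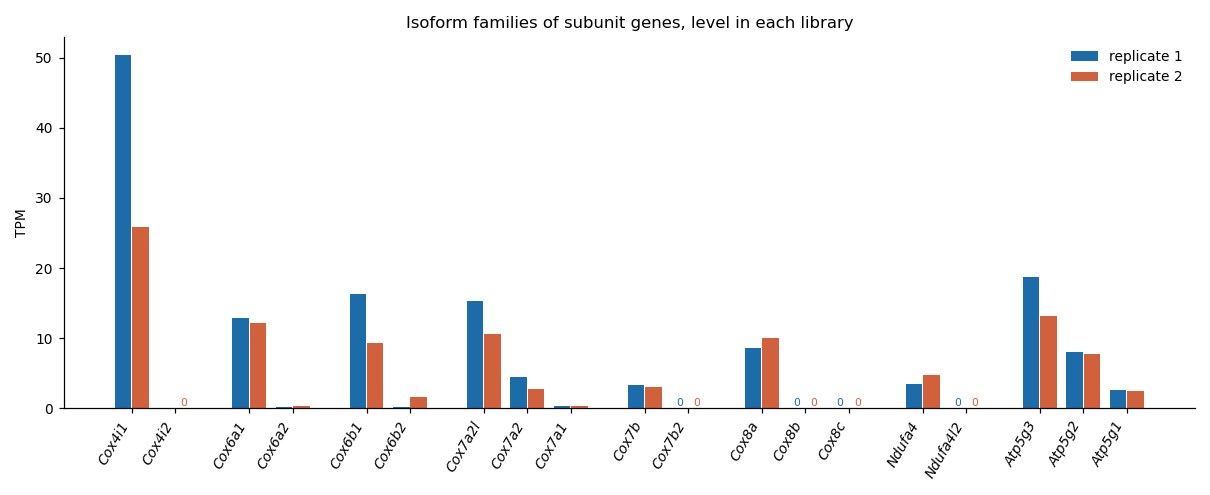
Levels in TPM (bars from 0) of the genes in 8 families with several forms, replicate 1 in blue and replicate 2 in orange; a 0 is written where no count was found. Values are of the first quantification. In each complex IV family the tissue-restricted forms (Cox4i2, Cox6a2, Cox6b2, Cox7a1, Cox7b2, Cox8b, Cox8c, Ndufa4l2) are below the broadly expressed one, whereas all 3 Atp5g genes are present.

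Complex V had a median of 9.05 ± 1.12 TPM over its 18 entries, against 6.66 ± 1.01 for complex I. Over detected genes alone it was 9.53 ± 1.01 TPM, below the 12.2 of complex IV. The 5 genes of the F1 head, where ATP is made, had a median of 13.5 ± 1.74 TPM. Atp5b, the catalytic beta subunit (chr10:128083273-128090391 on mm10), was the highest of all 90 members at 65.65 and 45.86 TPM, from 1129 and 1036 counts. Atp5a1, the alpha subunit, was at 27.91 and 23.35 TPM, and the rotor subunit Atp5c1 at 14.71 and 12.25. The order of these 3 was the same in both libraries. The small rotor subunits were lower, with Atp5e at 8.93 and 5.36 TPM and Atp5d at 7.32 and 4.85.

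The other 13 complex V entries, which form the membrane part, the peripheral stalk and associated proteins, had a median of 8.57 ± 1.22 TPM, and 12 reached 1 TPM in both libraries. The stalk subunits Atp5h and Atp5j led with 23.08 and 16.00 TPM and with 19.36 and 18.73 TPM. The c subunit of the membrane ring is encoded by 3 genes whose mature protein is the same. Atp5g3 was at 18.70 and 13.22 TPM, Atp5g2 at 7.97 and 7.70, and Atp5g1 at 2.59 and 2.43. The order Atp5g3, Atp5g2, Atp5g1 held in both libraries, with Atp5g3 2.00-fold above Atp5g2 (1.66 to 2.42) and 6.22-fold above Atp5g1 (4.96 to 7.85). The second quantification kept this order and put Atp5g3 3.04-fold and 3.35-fold above Atp5g2. Of the 77 detected members, Atp5g2 had the largest downward shift between the quantifications in both libraries. Unlike the complex IV families, this one had all its members above 1 TPM. Atp5g2 shares 40.2% of its 31-base words with other annotated transcripts, so its level is less certain than that of Atp5g3, which shares none.

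The remaining complex V genes lay between these. Atp5mpl, a small membrane protein of the complex, was at 14.69 and 14.39 TPM and Atp5f1 at 10.24 and 14.67. Atp5o, the stalk protein that confers sensitivity to oligomycin, was at 7.33 and 4.29 TPM under its main identifier. Of these 3 only Atp5f1 was higher in replicate 2, whereas in the second quantification all 3 were. Atp5l and Atp5k, the g and e subunits that are involved in joining ATP synthases into dimers, were at 15.96 and 8.81 TPM and at 9.43 and 4.12 TPM. Both were lower in replicate 2 in TPM, although Atp5l had more counts there (437 and 531). In the second quantification Atp5l was higher in replicate 2, at 7.22 and 8.36 TPM, and Atp5k was again lower.

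The libraries were then compared gene by gene as the log2 ratio of replicate 2 over replicate 1, after edgeR's TMM scaling of counts, for the 79 members whose scaled counts averaged at least 10. The ratio stands for a difference between 2 libraries that also differ in RNA input, not for a treatment. The median of the members was 0.15, against 0.00 over all 15557 genes tested. A ratio of deposited TPM moved the median of all genes to -0.36 and that of the members to -0.28, so the sign of the members' median depends on the scaling while it stayed slightly above that of all genes. In TPM, 61 of the 79 (77.2%) were lower in replicate 2, and so were 76.1% of all genes tested.

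The ratio was above 0 for 50 members and below 0 for 29. Over all genes tested it was above 0 for 7828 and below 0 for 7729. Over nuclear-encoded protein-coding genes these were 5690 and 6060. The interval of the ratio was clear of 0 on the higher side for 18 members (22.8%), where 24.5% of all genes tested were. On the lower side it was clear for 9 (11.4%), where 25.6% of all genes were. Whether an interval is clear of 0 depends on a gene's counts, and the genes compared were not matched for counts. By role the median was -0.06 for the core of complex I and 0.21 for its accessory subunits, of which 22 of 28 were above 0. It was 0.03 for complex III, 0.06 for complex IV, 0.08 for the F1 head, 0.13 for the rest of complex V and 0.21 for the assembly factors.

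More than 2-fold apart with an interval clear of 0 were 4 of 79 members (5.06%), against 8.02% of all genes tested and 5.25% of the protein-coding ones. The 3 higher ones (4.36% of all genes were) were Uqcrb, Ndufb4 and Ndufa3, and the 1 lower one (3.66% of all genes were) was Uqcr10. The members' share is thus near or below the background. The assembly factor Ndufaf6 fell just short, at -0.98 (interval -1.73 to -0.29). It was past 2-fold with DESeq2 scaling, library totals, protein-coding transcripts alone or a ratio of TPM.

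Uqcrb (chr13:66900617-66905378 on mm10) had 45 counts in replicate 1 and 145 in replicate 2, a log2 ratio of 1.74 (interval 1.26 to 2.26). It shares 58.2% of its words with other genes, mostly processed pseudogenes, of which Gm2962 was listed at 1 and 5 counts and Gm16089 at 2 and 5. Leaving out members that share 25% or more of their words removes Uqcrb and Ndufb4 from the comparison, and 2 members then remain past 2-fold. Uqcr10 (chr11:4701973-4704342) had 29 and 10 counts, a ratio of -1.43 (-2.68 to -0.40). Both genes belong to complex III, whose 8 genes had the lowest and the highest ratio among the 79 members.

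Ndufa3 (chr7:3617373-3620327) had 50 and 99 counts, a ratio of 1.04 (0.54 to 1.57). It was not past 2-fold with library totals (0.94), the second quantification (0.77) or a ratio of TPM (0.40), and the deposited credible bounds of its TPM, 10.1 to 79.7 and 14.8 to 61.6, overlap. Ndufb4 (chr16:37647170-37654453) had 13.9 and 31.2 counts, a ratio of 1.18 (0.25 to 2.23), and shares 38.3% of its words with the pseudogene Ndufb4c, itself at 20.1 and 22.8 counts. The counts behind 3 of the 4 ratios are thus under 100 in both libraries.

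Among members whose scaled counts averaged at least 50, the largest ratios after Uqcrb and Ndufa3 were 0.71 for Atp5f1, 0.70 for Ndufa12 and 0.67 for Ndufb10. Atp5f1, the b subunit of the peripheral stalk, went from 245 to 385 counts, Ndufa12 from 43.7 to 68.5 and Ndufb10 from 57 to 87. These 3 did not keep their direction throughout. Counts on protein-coding transcripts alone gave -1.42 for Atp5f1 and -0.68 for Ndufb10, and the second quantification gave -0.09 for Ndufa12. For Atp5f1 the coding counts went from 76.2 to 27.0 while those on intron-retaining transcripts went from 99.1 to 174. Atp5f1 also shares 45.8% of its words with other genes, among them a pseudogene and the neighbouring gene Wdr77.

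At the other end were Ndufs3 at -0.73 (239 and 138 counts, interval -1.05 to -0.42), Uqcrfs1 at -0.68 (119 and 71), Uqcrq at -0.62 (66 and 41, interval -1.23 to -0.04) and Cox4i1 at -0.50 (449 and 304). In the second quantification the counts, before scaling, lay closer for Uqcrq (98 and 96) and Cox4i1 (812 and 864). For Ndufs3 they were 362 and 331 there, and for Uqcrfs1 134 and 102. None of these 4 was 2-fold lower in scaled counts. In a ratio of TPM, where the median of all genes is -0.36, Uqcrfs1 (-1.04) and Uqcrq (-1.28) were, and on protein-coding transcripts alone Ndufs3 was (-1.25). In scaled counts, the Rieske protein Uqcrfs1 and its complex III partner Uqcrq were both lower in replicate 2. Uqcrc1 was higher there, with 354 and 429 counts (0.34, interval 0.13 to 0.54). The sign for Uqcrc1 depends on the scaling, since its ratio of TPM was -0.04, where the median of all genes was -0.36.

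**Figure D3:**
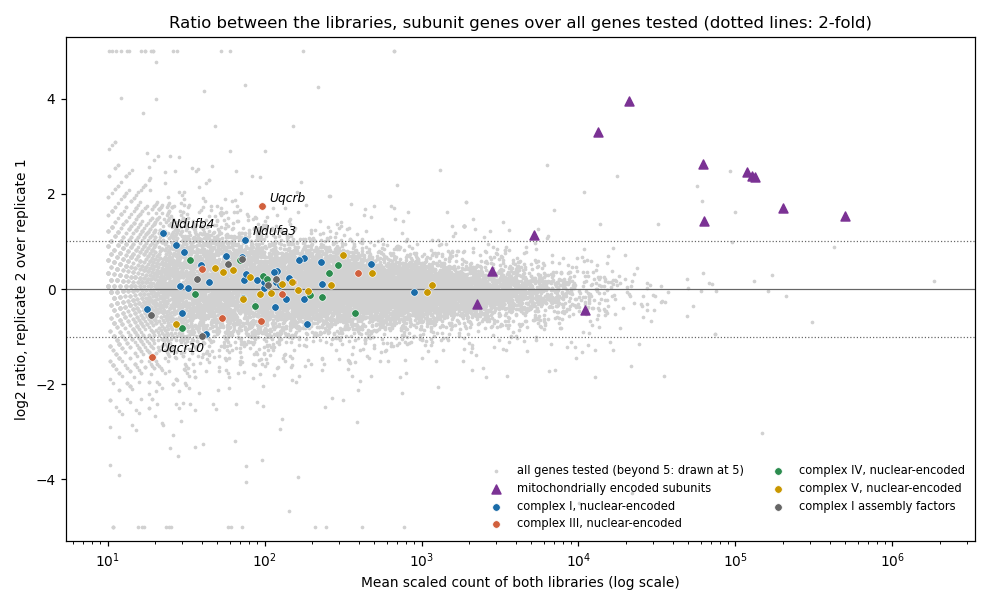
Log2 ratio of replicate 2 over replicate 1 (vertical axis) against the mean scaled count (log axis) for all 15557 genes tested in grey, 78 of the 79 nuclear-encoded members in colour by complex and the 13 mitochondrially encoded subunits as triangles; dotted lines mark 2-fold and the 4 members past them with an interval clear of 0 are named. Most members lie between the dotted lines, while 10 of 13 mitochondrially encoded subunits lie above the upper one.

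The nuclear-encoded subunits can be set against the 13 subunits that mitochondrial DNA encodes for the same complexes. These differed widely between the libraries: they made up 3.09% of the counts of replicate 1 and 10.4% of those of replicate 2, with a median log2 ratio of 1.70, and 10 of 13 were over 2-fold higher. For complex I, the nuclear genes took 0.0270% and 0.0271% of counts and the 7 mitochondrial genes 1.30% and 4.92%. For complex III, the nuclear genes in the list, which leaves out Cyc1, took 0.00511% and 0.00547% and mt-Cytb 0.232% and 1.12%. For complex IV the values were 0.0101% and 0.00967% against 1.53% and 3.98%. For complex V they were 0.0243% and 0.0244% against 0.0282% and 0.335%. In each complex the share of the nuclear-encoded genes differed little between the libraries, while that of the mitochondrial genes was higher in replicate 2. Summed over nuclear-encoded genes, the log2 ratio was 0.10 for complex I (0.05 to 0.16) and 0.19 for complex III (0.06 to 0.32). It was 0.11 for complex V (0.05 to 0.17) and 0.02 for complex IV (-0.08 to 0.11). The complex III sum, 931 and 1020 counts, includes the rise of Uqcrb from 45 to 145, and 4 of its 8 genes had a ratio below 0. It therefore does not stand for a difference across the complex. Within complex I the sum joined opposite differences, which single genes did not all share. The core was at -0.14 (-0.23 to -0.06) and the accessory subunits at 0.29 (0.22 to 0.37). Of the core genes 3 had a ratio above 0 and 4 below, and of the accessory ones 22 and 6.

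The log2 ratio of summed counts was 0.10 for all nuclear-encoded members (0.07 to 0.14) and 1.84 for the mitochondrial ones. Not every mitochondrial gene was higher in replicate 2: mt-Co3 (-0.45) and mt-Nd3 (-0.32) were lower, and mt-Co2 was at 0.37. The part of mitochondrial RNA in the members' ratios was not tested.

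**Figure D4:**
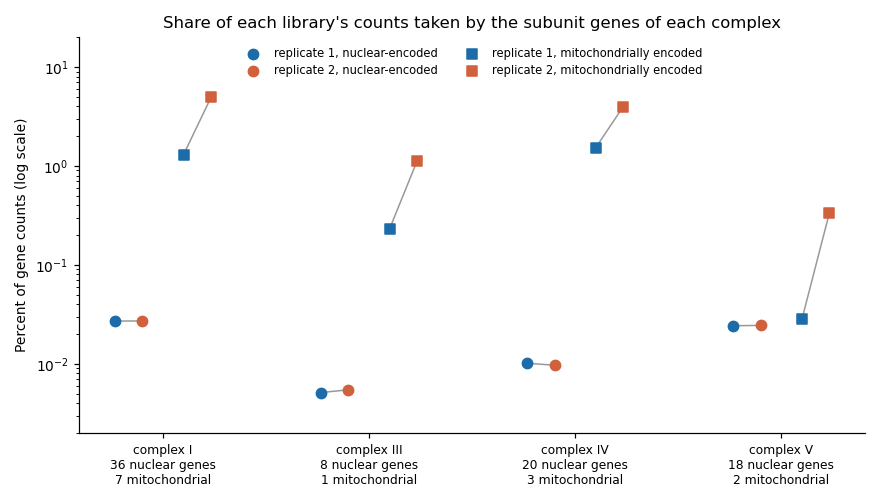
Percent of all gene counts (log axis) taken by the nuclear-encoded (circles) and mitochondrially encoded (squares) subunit genes of complexes I, III, IV and V. Replicate 1 is in blue and replicate 2 in orange. Assembly factors are left out, and so is Cyc1, which the symbol pattern does not match. The circles of each pair are close, from 0.0270% to 0.0271% in complex I and from 0.00511% to 0.00547% in complex III. The squares rise in all 4 complexes.

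Related genes outside the symbol pattern were present at similar levels. All 6 genes of complex II, cytochrome c and cytochrome c1 (Sdha to Sdhd, Cycs, Cyc1) passed 1 TPM in each library. Their median was 8.43 ± 2.28 TPM at a median log2 ratio of -0.03. Cyc1, cytochrome c1, is a nuclear-encoded subunit of complex III, so the complex III values above leave it out. It had 281 and 155 counts, a log2 ratio of -0.80 (interval -1.09 to -0.51). Sdha, the flavoprotein of complex II, was the highest at 48.88 and 39.53 TPM, and cytochrome c itself, Cycs, the lowest at 4.08 and 3.50. Of 27 other assembly factors, 25 reached 1 TPM in both libraries (median 4.37 ± 0.530 TPM), from Lyrm7 at 0.30 and 0.33 TPM to Cox16 at 17.28 and 19.57. Their median ratio was 0.13, with 1 of 27 over 2-fold higher, where 4.36% of all genes tested were. This gene was Cox20, a chaperone for the mitochondrially encoded subunit 2 of complex IV, which went from 23.8 to 175 counts (2.90, interval 2.31 to 3.61).

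Of 13 transcriptional regulators of respiratory genes, 12 were at 1 TPM or more in each library, around a median of 8.81 ± 1.83 TPM. The nuclear receptor Esrra had the highest mean, at 24.97 and 13.41 TPM, although Hcfc1, at 19.17 and 18.20, was above it in replicate 2. Nrf1 and Gabpa, whose motifs were searched above, were at 16.12 and 12.35 TPM and at 8.77 and 7.43 TPM. The coactivator Ppargc1a had 4 counts in replicate 1 and 0 in replicate 2, whereas its relatives Ppargc1b (3.28 and 1.91 TPM) and Pprc1 (18.94 and 12.51 TPM) were detected.

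Because nuclear RNA holds unfinished and retained transcripts, the intron-retaining share, meaning the percent of a gene's TPM that falls on transcripts of the annotated class retained_intron, was computed. Such a transcript is annotated for 49 members with a mean of 1 TPM or more. Their median share was 26.1% in replicate 1 and 25.7% in replicate 2 (25.9 ± 0.256%), against 32.2 ± 0.615% over 6420 protein-coding genes chosen in the same way. In counts instead of TPM the order of these medians was the opposite, 26.9 ± 0.353% for the members and 19.4 ± 0.506% for all. Counts weight long transcripts more than TPM does. The median length was 747 bases over all 90 members and 2081 over all nuclear-encoded protein-coding genes. The part of length in this reversal was not tested. No order between the members and other genes is read from either value.

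Within the list the share differed widely from gene to gene. Atp5j, subunit F6 of the stalk, had 80.6% and 81.8% of its TPM on intron-retaining transcripts, the highest share. Ndufaf7 had 73.0% and 81.4%, and Ndufab1 72.8% and 71.8%. For Atp5j and Ndufab1 the share stayed above 50% in counts and in the second quantification, in both libraries. For Ndufaf7 it did not, with 36.0% and 46.1% in counts and 14.7% and 41.7% in the second quantification. For Ndufab1 the protein-coding transcripts amounted to 3.80 and 4.26 TPM, and for Atp5j to 2.91 and 1.99 TPM. At the low end, Cox6a1 had 4.01% and 0%, Ndufa9 1.57% and 4.02%, and Ndufa4 0% and 6.16%.

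By role the median share was 34.8 ± 1.90% for the core of complex I, 36.2 ± 9.06% for its accessory subunits and 44.1 ± 0.684% for the assembly factors. It was 21.2 ± 4.04% for complex III, 15.6 ± 2.32% for complex IV, 17.7 ± 12.8% for the F1 head and 24.2 ± 0.352% for the rest of complex V. In counts the order of the roles differed, with 42.8% for the rest of complex V, 30.5% for the core of complex I, 25.8% for the F1 head, 21.5% for the accessory subunits, 18.6% for complex III and 17.2% for complex IV, so no order of roles is read from these medians. The share was stable between libraries for some genes and not for others: Ndufb4 had 53.1% and 90.8%, and Cox7a2 0% and 40.6%. Of the members' summed counts, protein-coding transcripts held 68.9% and 65.3% and intron-retaining ones 24.4% and 27.2%. Transcripts marked for nonsense-mediated decay held 1.51% and 2.25%.

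**Figure D5:**
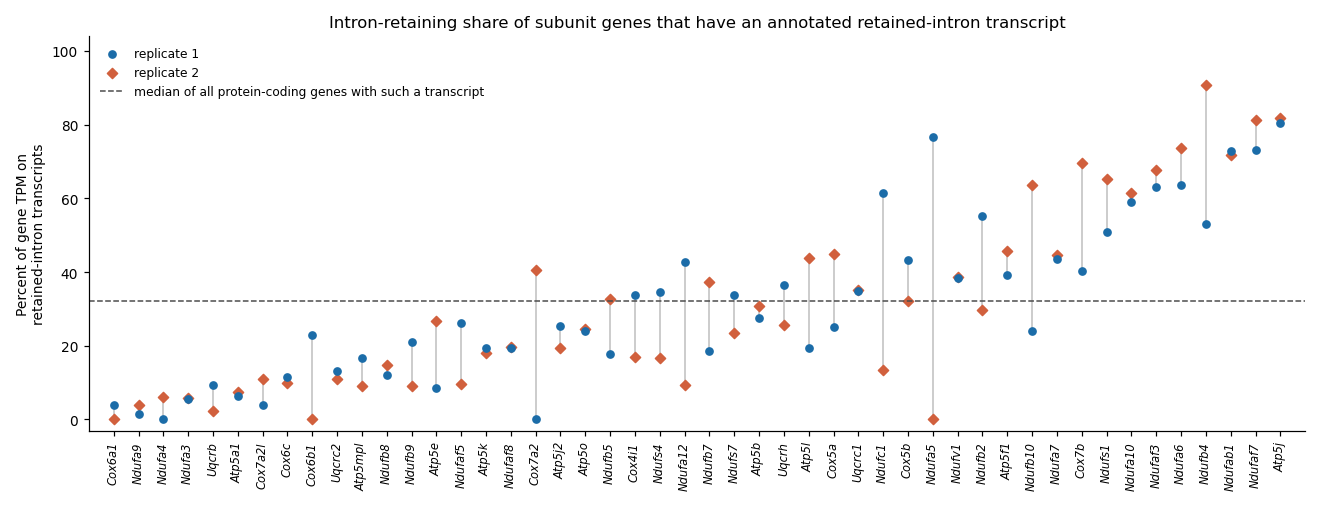
Intron-retaining share (percent of the gene's TPM), for 48 of the 49 members described above, ordered by their mean, with replicate 1 as circles and replicate 2 as diamonds joined by a line; the dashed line is the median of 32.2% over 6420 protein-coding genes. Values range from near 0 for Cox6a1 to over 80% for Atp5j, and long lines mark genes whose libraries differ.

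Some features of the gene set bear on how exactly it could be measured. The genes are spread over 19 chromosomes, with 3 on X. A protein-coding gene on the other strand starts within 1000 bases in the divergent direction for 20 of 90 members (22.2%), against 11.4% of detected protein-coding genes. In 14 of the 20 this neighbour was itself at 1 TPM or more in both libraries, such as Rps28 (87.58 and 67.60 TPM), whose start is 10 bases from that of Ndufa7, or Ik (75.35 and 57.07 TPM) at 99 bases from Ndufa2. Genes on the opposite strand overlap 32 members, and the strand setting of the counting (not given in the sources used here) decides whether reads of such pairs were told apart.

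Pseudogenes share sequence with many of the members: 48 of 90 members share at least 1 word of 31 bases with an annotated pseudogene, and 19 share 25% or more of their words with other genes. The same shares were not computed for other genes. The highest share among detected members was 85.4% for Atp5l, which has many processed copies. Small transcripts add a further limit, since 28 of 90 members have an effective length under 400 bases, against 1.54% of detected protein-coding genes. The second deposited quantification ranked the 77 detected members similarly (Spearman's rho 0.84 in replicate 1 and 0.87 in replicate 2, over the same reads). Its median log2 difference from the levels given here was -1.12 in replicate 1 and -0.10 in replicate 2. The direction of a TPM difference between the libraries can therefore change with the quantification, as for Cox4i1 and Ndufs1.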

How the data were processed

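Per the labels, total RNA of the nucleoplasmic fraction was sequenced after depletion of ribosomal RNA, on the mm10 assembly. The authors deposited, for each library, gene and transcript tables whose columns are those of RSEM and a transcript table whose columns are those of kallisto, per the file headers. The deposited units are expected counts (estimated counts that need not be whole), TPM, FPKM and credible bounds of TPM in the first tables, and estimated counts and TPM in the second. Aligner, settings and strand handling: not given in the sources used here. All identifiers were matched to GENCODE M21.

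Expected counts were rounded and then scaled by TMM with edgeR 4.0.16 under R 4.3.3. Ratios on the log2 scale used a prior count of 0.5 and exact Clopper-Pearson 95% intervals, for genes whose scaled counts averaged at least 10. A call needed over 2-fold and an interval clear of 0. Simulated data with known changes served as a test of the ratio step. With 1 group of 2 libraries no test between groups was made. Detection means 1 TPM or more in both libraries. No molecular identifiers are described, so reads may not be independent molecules and intervals cover counting error only. Shared words are 31-base stretches of annotated transcripts also found in another gene. Levels are from the first tables unless the second quantification is named. DESeq2 1.42.0, library totals, the second quantification and other minimums were alternatives. Figures and tables used Python 3.11.15, pandas 2.3.3 and matplotlib 3.10.9. The totals leave out entries that name no mouse gene (spike-ins, phiX and others), which held 0.823% and 0.207% of counts.

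The members, lists and motifs were chosen with earlier results of these data known. Named genes are, for each role, the 3 highest and 2 lowest by mean TPM, all genes of 8 families with several forms, the 5 largest and 5 smallest ratios at a mean scaled count of at least 50, members under 1 TPM in either library and the 3 highest and 3 lowest intron-retaining shares. A few others were named after their values were seen (Ndufs7, Ndufv1, Cox5a, Cox5b, Uqcrc2, Ndufs4, Ndufa13, Ndufa1, Ndufa8, Atp5mpl, Atp5k, Atp5l and Cox20 among them). The values of 1 member are not reported here by name, and it is counted in all totals and medians.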

Additional observations from a re-analysis of the deposited data

Results flagged for a closer look

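Signal was found in genes that match the symbol pattern but have no protein-coding transcript and enter none of the comparisons above. Ndufb1-ps, annotated as a noncoding RNA of a bidirectional promoter, had 77 counts in replicate 1 and 34 in replicate 2. Ndufb4c, a processed pseudogene of Ndufb4, had 20.13 and 22.83 counts. Both lie above the 3 counts that a count of 0 allows. Ndufb4c shares 38.3% of the 31-base words of Ndufb4, and the part of this overlap in its counts was not tested.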

How the results depend on the processing

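The count of members at 1 TPM or more was 50 with a minimum of 5 TPM, and 79 to 79 with either library left out. Their median TPM was 4.67 in the second quantification, 25.7 when TPM was rescaled to nuclear-encoded protein-coding genes and 4.43 on protein-coding transcripts alone, and 5.54 to 7.33 without one library. The rescaling removes the abundant noncoding and mitochondrial RNAs from the denominator, and the cause of the other shifts was not tested. The median log2 ratio was 0.0496 with library totals, 0.0273 in the second quantification, 0.0735 on protein-coding transcripts, -0.28 from TPM and 0.19 with its GC trend taken out. The number of members over 2-fold apart was 2 at a mean scaled count of 50 or more, 8 on protein-coding transcripts (3 higher, 5 lower), 9 from TPM (2 higher, 7 lower) and 2 without members that share 25% or more of their words. The first and the last of these hold fewer genes by construction. The share of all genes called was not computed under these alternatives, so the counts have no background. In TPM, 76.1% of all genes tested were lower in replicate 2. Uqcrb was past 2-fold under each alternative that kept it, and Uqcr10 likewise. The median intron-retaining share was 26.9% in counts, 28.4% in the second quantification and 26.3% at a mean of 5 TPM or more, and 25.7% to 26.1% without one library. Ratios that changed sign were -0.68 for Ndufb10 and -1.42 for Atp5f1 on protein-coding transcripts and -0.0864 for Ndufa12 in the second quantification, and the cause was not tested. The alternatives on protein-coding transcripts, shared words and GC content were chosen after seeing the data. No paired analysis was possible because there is only 1 group. Depth limits single genes, since 36 of 90 members had under 50 counts in a library.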
